A study of Mus musculus with 6 samples.

Results

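The 9 genes described here encode enzymes of the citrate cycle and the isocitrate dehydrogenases around it: citrate synthase (Cs), the NADP-linked isocitrate dehydrogenases of the cytosol (Idh1) and the mitochondria (Idh2), the 3 subunits of the NAD-linked isocitrate dehydrogenase (Idh3a, Idh3b and Idh3g), the first subunit of the 2-oxoglutarate dehydrogenase complex (Ogdh), a subunit of succinyl-CoA ligase (Suclg1) and mitochondrial malate dehydrogenase (Mdh2). They were chosen by gene symbol, from a list written with earlier results of these data known, and are 9 of 23282 rows of the count tables. Interscapular brown adipose tissue (BAT) came from male C57BL/6N mice at 5 weeks of age, 3 wild type and 3 Letmd1 KO. By the study's methods, the Letmd1 KO mice are homozygous for a knockout-first allele from 1 embryonic stem cell clone, in which a lacZ and neomycin resistance cassette inserted in an intron disrupts Letmd1. The allele is carried by all tissues and not by BAT alone, and wild-type mice lack it. LETMD1 is a mitochondrial matrix protein, and the comparison asks which transcripts of BAT change when it is lost. RNA of the whole depot was read from the 3′ end of each transcript with QuantSeq, so that counts do not scale with transcript length, and levels of different genes are compared here without dividing by length.

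The citrate cycle oxidises acetyl groups to carbon dioxide in the mitochondrial matrix and passes the electrons, as NADH and reduced ubiquinone, to the respiratory chain. In brown fat it burns the acetyl-CoA made from fatty acids and glucose, and uncoupling protein 1 lets the respiratory chain turn this fuel into heat. Isocitrate is converted to 2-oxoglutarate by 3 different enzymes. The NAD-linked enzyme made of Idh3a, Idh3b and Idh3g works in the forward cycle and makes NADH. The separate enzymes Idh1 and Idh2 use NADP, make NADPH in the cytosol and the matrix, and can also run in reverse.

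The libraries held between 6669577 and 14574273 counts. The 9 genes together took between 0.917% and 0.976% of the counts in wild-type BAT and between 0.569% and 0.803% in Letmd1 KO BAT. Counts of Letmd1 were 5658, 6490 and 5266 for wild type against 0, 0 and 1 for KO, at least 2197-fold lower against a floor of 3 counts per library, so the genotype labels matched the counts. Levels are given as CPM, counts scaled to a common library total after TMM normalization, which had factors between 0.852 and 0.886 in wild-type and between 1.13 and 1.17 in KO libraries. Because these factors differ by genotype, library scaling alone shifts the log2 fold change of all genes, whose median was 0.033 with TMM and 0.45 with library size alone. The 12 brown adipocyte markers, which include Ucp1 and Cidea, summed to between 43606 and 49492 CPM in wild-type and between 13864 and 17059 CPM in KO BAT, with 10 of 12 lower. Fabp4 made up the largest part of both sums, with means of 28020 CPM in wild-type and 10462 CPM in KO BAT. The KO mean of Ucp1 was 6.04% of its wild-type mean. Ppargc1a (log2 fold change -0.52) and Pparg (-0.18) did not pass the threshold. In tissue RNA, fewer brown adipocytes and less RNA per brown adipocyte cannot be told apart. The summed level of 13 macrophage markers was 187 to 263 CPM in wild-type and 1527 to 3651 CPM in KO BAT, with 13 of 13 higher. The 15 skeletal muscle markers summed to 87.7, 527 and 100.005 CPM in wild-type replicates 1, 2 and 3 and to 482, 376 and 1373 CPM in the KO replicates, with 2 of the 14 tested higher, and Ckm, Myh2, Myh4, Myh7, Pvalb and Tnnt3 at 0 counts in wild-type replicates 1 and 3. Endothelial markers (6 genes) ranged from 412 to 526 CPM in wild-type and from 282 to 356 CPM in KO BAT, with 3 lower and 1 higher. The 6 erythroid markers ranged from 9964 to 18520 CPM and from 10002 to 13670 CPM, and none passed the threshold. At that threshold, 22.3% of all genes tested were lower and 23.7% were higher. Where these lists move with genotype, their part in the results for the 9 genes was not tested, except where values are given beside a result.

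All 9 genes passed the filter on low counts. In Letmd1 KO BAT, 7 of the 9 were lower, 1 (Idh2) was higher, and Cs did not pass the threshold of an adjusted p of 0.05 (edgeR's quasi-likelihood test, Benjamini-Hochberg adjustment over all 12995 genes tested). Of all genes tested, 22.3% were lower and 23.7% were higher. No KO mouse overlapped the wild-type mice for any of the 9 genes, while this held for 57.3% of all genes tested. The median log2 fold change of the 9 genes was -1.09.

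**Figure D1:**
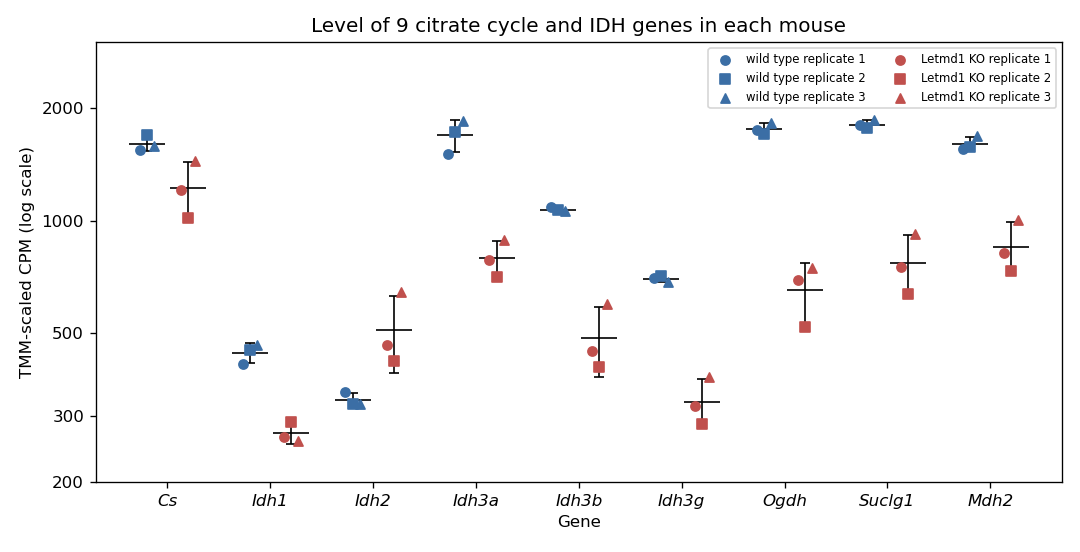
TMM-scaled CPM on a log axis for each of the 9 genes in the 3 wild-type mice (blue) and the 3 Letmd1 KO mice (red), with a symbol for each replicate, and the mean and SD in black. Idh2 is the gene whose KO mice, between 421 and 645 CPM, all lie above the wild-type mice, which lie between 323 and 349 CPM.

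Cs, on chromosome 10 from 128337734 to 128362479 (GRCm38 positions throughout, from GENCODE, which is the mm10 of the submitters' processing notes), encodes the enzyme that joins acetyl-CoA to oxaloacetate at the entry of the cycle. Its level was 1550.1, 1695 and 1583 CPM in the wild-type mice and 1212, 1017 and 1444 CPM in the KO mice. The KO mice were all below the wild-type mice, with KO replicate 3 closest to them. The log2 fold change was -0.39 (standard error 0.15, adjusted p = 0.0563). The direction of Cs depends on the scaling, as the log2 fold change was 0.027 with library size alone and 0.43 (adjusted p = 0.0421) under quantile normalization with limma, the normalization named in the study's methods. Without KO replicate 3 it was -0.53 and passed the threshold (adjusted p = 0.0143).

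The 3 subunits of the NAD-linked enzyme fell together. Idh3a, the catalytic subunit, lies on chromosome 9 from 54586334 to 54604661. Its level was 1513, 1729 and 1844 CPM in the wild-type mice and 787, 708 and 887 CPM in the KO mice. The groups did not overlap, and the KO mean was 46.9% of the wild-type mean (log2 fold change -1.09, standard error 0.14, adjusted p = 0.000247). Idh3b (chromosome 2, 130279309 to 130284547) had 1086, 1065 and 1063 CPM in wild-type and 448, 407 and 599.6 CPM in KO BAT. The wild-type mice differed from each other by little, with an SD of 12.4 CPM, and the KO mice lay at 45.2% of their mean (log2 fold change -1.14, standard error 0.15, adjusted p = 0.000344). Idh3g (X chromosome, 73778963 to 73786897), like Idh3b a subunit that regulates the enzyme, had 702, 712 and 685 CPM in wild-type and 319, 285 and 381 CPM in KO BAT. Its KO mean was 46.9% of the wild-type mean (log2 fold change -1.09, standard error 0.13, adjusted p = 0.000162). Under quantile normalization the log2 fold changes were -0.29 for Idh3a (adjusted p = 0.132), -0.63 for Idh3b and -0.68 for Idh3g, so that the call for Idh3a was lost and the other 2 calls held.

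The proportions among the 3 subunit transcripts were similar in both genotypes. The count of Idh3b over that of Idh3a was 0.637 ± 0.0728 in wild-type and 0.606 ± 0.0602 in KO BAT (SD, n = 3 each). The count of Idh3g over that of Idh3a was 0.416 ± 0.0465 and 0.413 ± 0.0146 (SD, n = 3 each). Idh3g over Idh3b was 0.653 ± 0.0130 and 0.683 ± 0.0419 (SD, n = 3 each). Each of these differences was smaller than the spread among the KO mice or among the wild-type mice.

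Idh2, on the minus strand of chromosome 7 from 80094846 to 80115392, encodes the mitochondrial NADP-linked enzyme. Its level was 349, 323 and 324 CPM in the wild-type mice and 464, 421 and 645 CPM in the KO mice. All KO mice were above all wild-type mice, and KO replicate 3 stood above the other KO mice. The KO mean was 1.54-fold higher (log2 fold change 0.62, standard error 0.16, adjusted p = 0.0113). The increase was larger with library size alone (log2 fold change 1.04) and under quantile normalization (0.99), and smaller without KO replicate 3 (0.41, adjusted p = 0.0224). With the muscle markers of each mouse as a covariate the log2 fold change was 0.51 and no longer passed the threshold (adjusted p = 0.187), in a fit that leaves fewer degrees of freedom. Among the KO mice, Idh2 and the summed muscle markers had the same order. KO replicate 3 was highest in both (645 CPM of Idh2 and 1373 CPM of muscle markers), and KO replicate 2 was lowest (421 and 376 CPM). This order of the KO mice was not particular to Idh2, as it held for 8 of the 9 genes. The library totals also had this order, with 7805641, 6669577 and 14574273 counts in KO replicates 1, 2 and 3. Among the wild-type mice, replicate 2 had the most muscle markers, 527 CPM. Its Idh2 level was 323 CPM, about level with the 324 CPM of replicate 3, and replicate 1 had 349 CPM. The part of muscle RNA in the Idh2 difference was not tested beyond the covariate. KO replicate 2 had the highest summed level of macrophage markers, 3651 CPM, and the lowest Idh2 level among the KO mice, 421 CPM.

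Idh1, on the minus strand of chromosome 1 from 65158616 to 65186500, encodes the cytosolic NADP-linked enzyme, a source of NADPH for lipid synthesis. It had 413, 452 and 466 CPM in the wild-type mice and 263, 289.8 and 258 CPM in the KO mice. The KO mean was 61.0% of the wild-type mean (log2 fold change -0.71, standard error 0.11, adjusted p = 0.000641), and Idh1 passed the threshold under 13 of 13 alternatives. The KO mice kept a different order for Idh1 than for the other genes. For 8 of the 9 genes KO replicate 3 was the highest and KO replicate 2 the lowest KO mouse, and for Idh1 the order was reversed.

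Set beside each other within a mouse, the isocitrate dehydrogenases changed their proportions. These ratios of counts come from 1 library each and do not depend on a scaling factor for the library. Idh2 took 8.60%, 7.55% and 7.40% of the counts of the 5 genes in the wild-type mice, against 20.3%, 19.95% and 23.3% in the KO mice. The share of Idh1 was 10.4% ± 0.250 in wild-type and 11.5% ± 2.22 in KO BAT (SD, n = 3 each). The share of Idh3a went from 39.9% ± 2.46 to 33.4% ± 1.25, that of Idh3b from 25.3% ± 1.28 to 20.2% ± 1.28, and that of Idh3g from 16.5% ± 0.832 to 13.8% ± 0.241 (SD, n = 3 each). The shares of Idh2, Idh3a, Idh3b and Idh3g did not overlap between the genotypes, and those of Idh1 did.

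**Figure D2:**
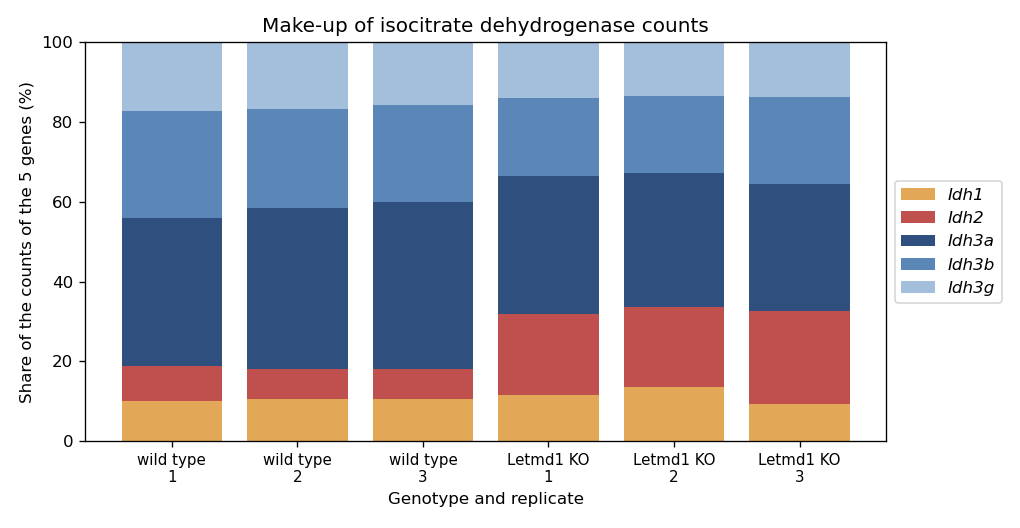
Share of each gene, in percent, in the summed counts of Idh1, Idh2, Idh3a, Idh3b and Idh3g, with 1 bar for each mouse. The band of Idh2 widens from 7.85% ± 0.650 in wild-type to 21.2% ± 1.82 in Letmd1 KO BAT (SD, n = 3 each).

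In total, the 3 NAD-linked subunits summed to 3466 ± 149.8 CPM in wild-type and 1607 ± 239 CPM in KO BAT, and Idh1 and Idh2 to 776 ± 14.1 and 781 ± 106 CPM (SD, n = 3 each). With library size alone, the NAD-linked sum went from 2994 ± 151 to 1859 ± 299.5 CPM and the NADP-linked sum from 669.95 ± 17.4 to 902 ± 132 CPM (SD, n = 3 each), so that a near-equal NADP-linked sum belongs to the TMM scale.

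Of 7 ratios compared, 3 set Idh2 against the NAD-linked subunits, and these were higher in KO BAT by similar amounts. Idh2 over Idh3b was 0.322, 0.303 and 0.305 in the wild-type mice, against 1.04, 1.04 and 1.08 in the KO mice, a 3.39-fold difference of means on the log scale (1.76 on the log2 scale). The values of a genotype lay close together, with an SD of 0.046 in wild-type and 0.031 in KO BAT on the log2 scale. Idh2 over Idh3a went from 0.231, 0.187 and 0.176 to 0.590, 0.595 and 0.727, and Idh2 over Idh3g from 0.497, 0.454 and 0.473 to 1.45, 1.48 and 1.69. The differences of the log2 ratios were 1.69 and 1.70. In wild-type BAT Idh2 was thus the less abundant transcript of each pair, and in KO BAT it was above Idh3g and about level with Idh3b. Idh2 over Idh1 went from 0.846, 0.716 and 0.697 to 1.76, 1.45 and 2.51, a difference of 1.31 on the log2 scale. For each of these 4 ratios the genotypes did not overlap, and the two-sided exact permutation test of 3 mice against 3 gave p = 0.1 (0.14 after Benjamini-Hochberg adjustment over the 7 ratios), where 0.1 is the smallest p that the design allows.

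Idh1 over the NAD-linked subunits moved less. Idh1 over Idh3a was 0.273, 0.261 and 0.253 in the wild-type mice, against 0.335, 0.409 and 0.290 in the KO mice, without overlap (difference 0.38 on the log2 scale, two-sided exact permutation p = 0.1, adjusted p = 0.14). This difference was -0.064 when CPM were quantile-normalized. Idh1 over Idh3b and over Idh3g differed by 0.45 and 0.39 on the log2 scale, with KO replicate 3 inside the wild-type range for both (two-sided exact permutation p = 0.2, adjusted p = 0.2).

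**Figure D3:**
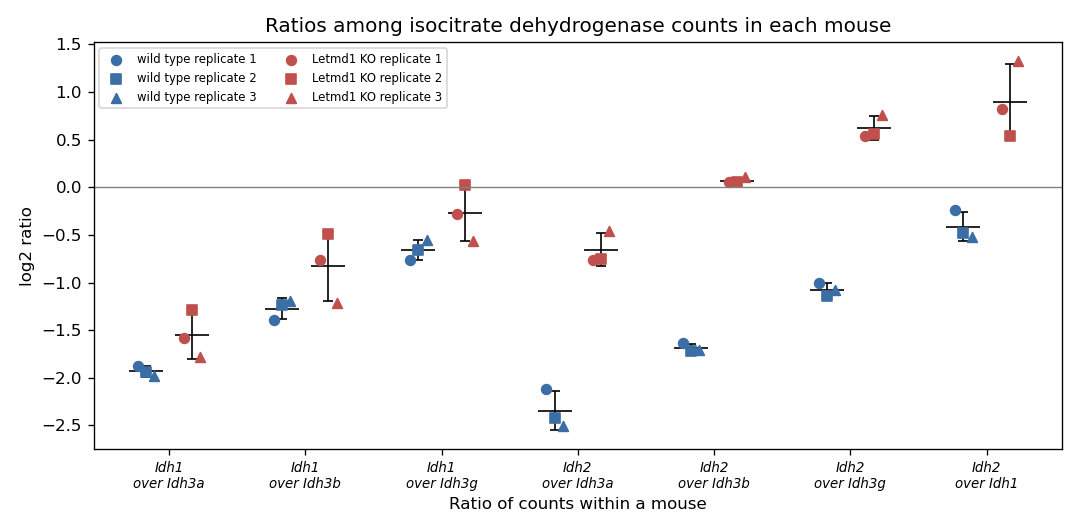
Log2 ratio of counts within each mouse for the 7 pairs named below the axis, with wild-type mice in blue, Letmd1 KO mice in red, and the mean and SD in black; a value of 0 means equal counts. For Idh2 over Idh3b the wild-type mean is -1.69 and the KO mean is 0.070, and the 3 mice of each genotype lie almost on top of each other.

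The window around the start of the gene was printed for Idh2, which was higher, and for Idh3b and Idh3g, which were lower, to show the sequence of genes of 1 reaction that moved in opposite directions. The windows run from 250 bases before to 50 bases after the RefSeq start on GRCm38.p6, 5′ to 3′ on the strand of the gene. The table of promoters matched 8 of the 9 genes. Idh3a was not matched. Capitals mark the core motif of the transcription factor GABP (CCGGAAG or its reverse complement), and the remaining bases are in lower case. Idh2 lies at chr7:80115301-80115600, Idh3b at chr2:130284402-130284701 and Idh3g at chrX:73786848-73787147, all on the minus strand.
Idh2: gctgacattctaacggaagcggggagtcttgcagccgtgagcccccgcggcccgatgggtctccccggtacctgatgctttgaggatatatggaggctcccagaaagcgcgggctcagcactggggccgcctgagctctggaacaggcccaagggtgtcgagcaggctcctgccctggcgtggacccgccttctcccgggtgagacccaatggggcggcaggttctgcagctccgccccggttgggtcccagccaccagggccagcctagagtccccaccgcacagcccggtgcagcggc
Idh3b: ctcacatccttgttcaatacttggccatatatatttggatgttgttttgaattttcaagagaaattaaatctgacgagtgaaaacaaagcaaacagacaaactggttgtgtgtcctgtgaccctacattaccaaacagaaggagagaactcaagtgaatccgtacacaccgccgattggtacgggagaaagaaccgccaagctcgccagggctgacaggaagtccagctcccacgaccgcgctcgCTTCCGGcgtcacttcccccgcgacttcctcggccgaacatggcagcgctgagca
Idh3g: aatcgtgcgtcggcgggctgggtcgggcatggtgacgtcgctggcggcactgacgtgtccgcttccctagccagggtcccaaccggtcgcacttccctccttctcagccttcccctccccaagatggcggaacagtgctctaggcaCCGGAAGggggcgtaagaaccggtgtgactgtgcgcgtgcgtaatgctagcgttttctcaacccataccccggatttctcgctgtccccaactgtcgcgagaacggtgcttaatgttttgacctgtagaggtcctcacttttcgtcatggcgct

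Motifs were searched on both strands. The GABP core, held by 8.86% of the 32851 windows in the table, began 5 bases before the start of Idh3b and 104 bases before that of Idh3g. A cyclic AMP response element (TGACGTCA, in 1.79% of windows) was found for Ogdh, in the overlapping windows of 3 of its 6 annotated starts, and for Mdh2, 127 bases before its start. The core of the NRF1 motif (GCGCATGC, in 2.71%) was found in the overlapping windows of 2 other starts of Ogdh, and the core half-site of the oestrogen-related receptors (AAGGTCA, in 4.72%) in that of the remaining start. The longer form of that half-site (TCAAGGTCA, in 0.423%), which contains the shorter one, and an amino acid response element (TGATGCAA, in 0.895%) were in no window of the 8 genes. The windows of Cs, Idh1, Idh2 and Suclg1 held none of the 6 motifs. A match of letters is a description of the sequence and no evidence of binding.

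Some starts lie close to that of another gene. The start of Ssr4, which encodes a subunit of the translocon-associated complex of the endoplasmic reticulum, lies 131 bases from that of Idh3g on the other strand, and its log2 fold change was -0.29 (standard error 0.12, adjusted p = 0.0819), against -1.09 for Idh3g. The start of Pikfyve, a lipid kinase gene, lies 183 bases from that of Idh1, and its log2 fold change was 0.13 (adjusted p = 0.545). Styxl1 starts 95 bases from Mdh2 and was not among the genes tested. The exons of Idh3b and of Nop56 (log2 fold change -0.52) on the opposite strand share 5 bases. No other of the 9 genes shares exonic bases with an annotated gene. How reads with several alignments were divided, and whether strand was used in counting, is not given in the sources used here.

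The 3 of the 9 genes whose enzymes act later in the cycle than isocitrate dehydrogenase were lower. Ogdh (chromosome 11, 6291633 to 6356642) encodes the subunit that decarboxylates 2-oxoglutarate. It had 1753, 1708 and 1827 CPM in the wild-type mice and 694, 519 and 746 CPM in the KO mice, so that the KO mean was 37.0% of the wild-type mean. Ogdh had the most negative log2 fold change of the 9 genes, -1.43 (standard error 0.15, adjusted p = 9.35e-05). Suclg1 (chromosome 6, 73248382 to 73276911) encodes the alpha subunit of succinyl-CoA ligase, shared by its ADP- and GDP-forming variants. It had 1799.5, 1767 and 1861 CPM in wild-type and 752, 636 and 922 CPM in KO BAT. The KO mean was 42.6% of the wild-type mean (log2 fold change -1.23, standard error 0.15, adjusted p = 0.000214). Mdh2 (chromosome 5, 135778480 to 135790398), which restores oxaloacetate, had 1556, 1575 and 1682 CPM in wild-type and 818, 736 and 1004 CPM in KO BAT. It was at 53.1% of its wild-type mean (log2 fold change -0.91, standard error 0.14, adjusted p = 0.000822). The groups of Ogdh, Suclg1 and Mdh2 did not overlap. Under quantile normalization Ogdh and Suclg1 still passed the threshold (log2 fold changes -0.70 and -0.46), and Mdh2 did not (-0.11, adjusted p = 0.594).

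**Figure D4:**
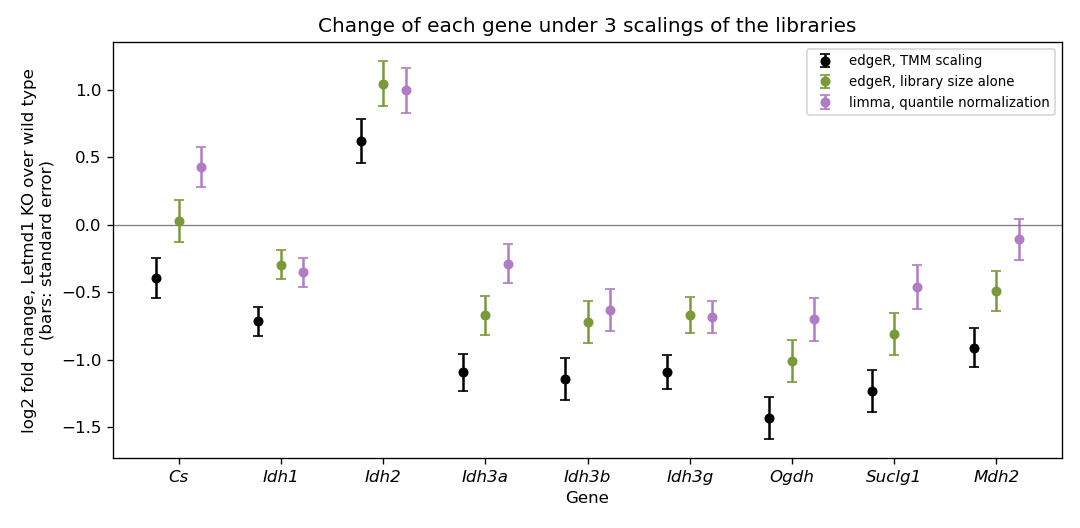
Log2 fold change of Letmd1 KO over wild-type BAT for the 9 genes under TMM scaling (black), library size alone (green) and quantile normalization (purple), with bars of 1 standard error. Idh2 is above 0 under all 3, Cs lies on either side of 0, and the other 7 genes are below 0 under all 3.

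The order of the transcript levels changed. In wild-type BAT it was Suclg1 (1809 CPM), Ogdh (1763), Idh3a (1695), Cs (1609), Mdh2 (1604), Idh3b (1071), Idh3g (699.8), Idh1 (443) and Idh2 (332), as means of 3 mice. Neighbours among the first 5 overlapped in their ranges over mice, and the remaining steps down did not. In KO BAT the order was Cs (1224 CPM), Mdh2 (852), Idh3a (794), Suclg1 (770.0), Ogdh (653), Idh2 (510.3), Idh3b (485), Idh3g (328) and Idh1 (270.3). Cs did not overlap with Mdh2 below it, nor Idh3b with Idh3g, and the other neighbours overlapped. Cs moved from the fourth to the first place and Idh2 from the ninth to the sixth. The KO mice also varied more: the coefficient of variation was between 1.16% and 9.92% in wild-type BAT, and between 11.3% and 23.3% in KO BAT for all genes but Idh1, with 6.36%.

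The remaining enzymes of the cycle were lower too. A list of 17 genes of the mitochondrial cycle includes Cs, Idh3a, Idh3b, Idh3g, Ogdh, Suclg1 and Mdh2. Of the 17, 16 were lower, none was higher and Cs did not pass the threshold. The median log2 fold change was -1.09 against 0.033 for all genes tested, of which 22.3% were lower and 23.7% higher. Under quantile normalization 11 of the 17 were lower and 1, Cs, was higher. Dlst, the second subunit of the 2-oxoglutarate dehydrogenase complex, fell from 943 ± 31.7 to 302 ± 58.2 CPM (SD, n = 3 each; log2 fold change -1.64), and Sdhd of succinate dehydrogenase had a log2 fold change of -1.43. Among the genes of this list that are not among the 9, the least negative values were those of Sucla2 (-0.87), Suclg2 (-0.91) and Sdha (-0.97). Sucla2 and Suclg2 encode the ADP- and GDP-specific partners of Suclg1.

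Of 9 isoforms and related enzymes, 7 passed the filter, 6 were lower and Idh2 was higher. This compares with 22.3% lower and 23.7% higher among all genes tested. Among the genes not among the 9, Mdh1, the cytosolic malate dehydrogenase, fell from 1105 ± 32.4 to 467 ± 33.9 CPM (SD, n = 3 each; log2 fold change -1.24, adjusted p = 3.96e-05). Aco1, the cytosolic aconitase and iron regulatory protein, had a log2 fold change of -1.12, and Csl, a relative of Cs with 44 to 74 counts per wild-type mouse, one of -0.99. Reads shared between Cs and Csl were not measured, so the value of Csl is uncertain. D2hgdh, which returns D-2-hydroxyglutarate to 2-oxoglutarate, fell from 17.7 ± 1.53 to 7.92 ± 0.619 CPM (SD, n = 3 each), with a log2 fold change of -1.15. Ogdhl and Dhtkd1 were under the floor of 3 counts in all 6 mice, and Ogdhl had no counts.

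Enzymes and carriers that lead into and out of the cycle moved both ways. Of 18 genes, 17 were tested, 7 were lower, 8 were higher and 2 did not pass the threshold. Among all genes tested the shares were 22.3% lower and 23.7% higher. Among the most negative, Glul (glutamine synthetase) fell from 4525 ± 544 to 542 ± 339 CPM, Acly (ATP citrate lyase, which makes cytosolic acetyl-CoA for fatty acids) from 3332 ± 1155 to 425 ± 374 CPM, and the citrate carrier Slc25a1 from 1045 ± 96.8 to 174 ± 164.5 CPM (SD, n = 3 each), with log2 fold changes of -3.06, -2.97 and -2.60. In KO replicate 2, in which Idh1 was highest among the KO mice, Acly was 856 CPM against 217 and 202 CPM in KO replicates 1 and 3, and Slc25a1 was 363 CPM against 89.0 and 68.6 CPM. Among the most positive, Pck2, the mitochondrial phosphoenolpyruvate carboxykinase, rose from 12.6 ± 4.02 to 79.3 ± 16.6 CPM, Got1, the cytosolic aspartate aminotransferase, from 27.6 ± 3.13 to 156 ± 43.5 CPM, and the aspartate-glutamate carrier Slc25a12 from 5.06 ± 0.852 to 25.0 ± 10.3 CPM (SD, n = 3 each), with log2 fold changes of 2.65, 2.50 and 2.32.

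Among 12 other genes listed for the supply of NADP or NADPH, the cofactor of Idh1 and Idh2, 5 were lower, 3 were higher and 4 did not pass the threshold. Which cofactor each enzyme, such as that of Mthfd2, uses in BAT was not measured. Me1 and Me3 are in this and the preceding list. Among all genes tested, 22.3% were lower and 23.7% were higher, so that 3 of 12 higher is near the share of all genes. The 3 that rose act in mitochondria, as do Me3 and Nadk2, which were lower. Aldh1l2, the mitochondrial 10-formyltetrahydrofolate dehydrogenase, rose from 0.971 ± 0.398 to 39.8 ± 7.55 CPM and Mthfd2, of mitochondrial folate metabolism, from 7.07 ± 3.16 to 94.3 ± 19.97 CPM (SD, n = 3 each), with log2 fold changes of 5.37 and 3.75. For Nnt, the transhydrogenase of the inner membrane, it was 0.96 (adjusted p = 0.0193). The most negative values were those of the mitochondrial malic enzyme Me3 (-1.77), the mitochondrial NAD kinase Nadk2 (-1.48) and Pgd of the pentose phosphate pathway (-1.33). With library size alone 3 of the 12 were lower and 4 higher.

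**Figure D5:**
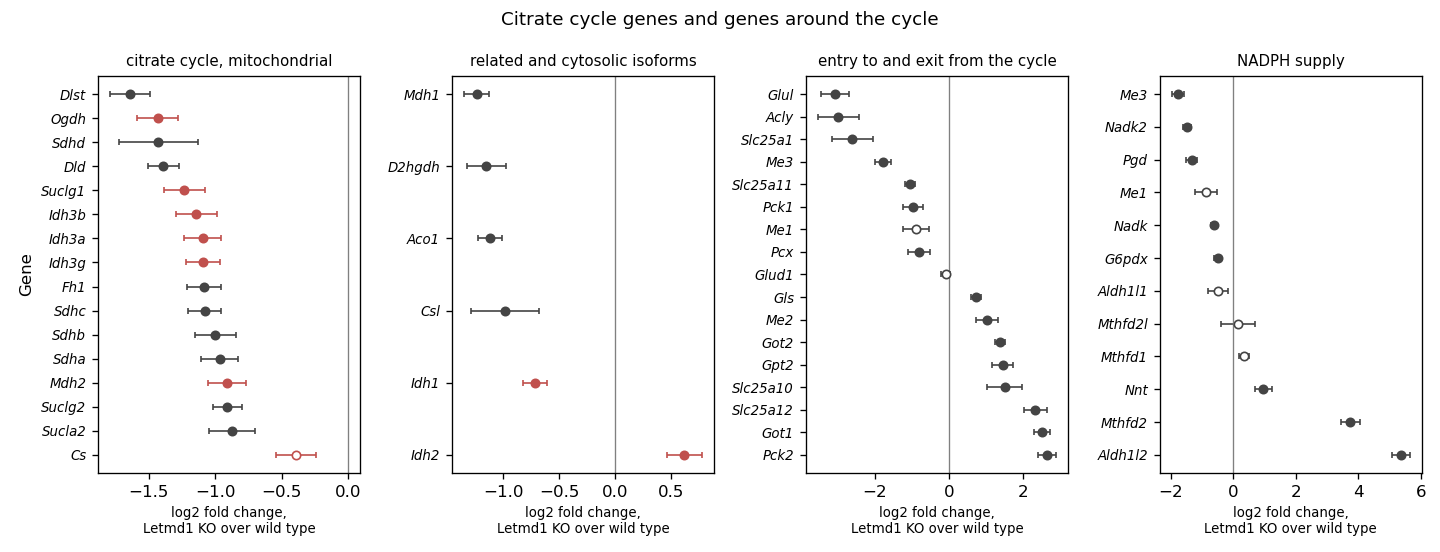
Log2 fold change of Letmd1 KO over wild-type BAT, with bars of 1 standard error, for tested genes of 4 lists: the mitochondrial citrate cycle, its related and cytosolic isoforms, entry to and exit from the cycle, and NADPH supply. Red marks the 9 genes described here, and open symbols did not pass the threshold; Idh2 (0.62) is the single gene to the right of 0 in the first 2 lists.

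The genes whose log2 CPM followed a member most closely over the 6 mice, among 10319 genes with a mean of at least 50 counts, are given with Pearson's r as a description, since the genotype difference and the library depths are shared by all genes. For Idh2 they were Ptpn21 (r = 0.989), Arhgap12 (r = 0.985) and Capns1 (r = 0.983), with log2 fold changes of 0.58, 0.23 and 0.28. In edgeR's quasi-likelihood test Ptpn21 passed the threshold (adjusted p = 0.0489). Arhgap12 (adjusted p = 0.107) and Capns1 (adjusted p = 0.067) did not. For Idh1 they were B430212C06Rik (r = 0.998), Dhrs7 (r = 0.998) and Rilp (r = 0.998), and for Idh3a Fbxw4 (r = 0.999), Cdk5 (r = 0.998) and Stx18 (r = 0.998).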

How the data were processed

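RNA of BAT from 3 wild-type and 3 Letmd1 KO mice was sequenced as QuantSeq 3′ libraries. Single-end reads were aligned by the authors with Bowtie2. Reads per gene, including those with several alignments, were tallied with Bedtools, and the authors deposited them as unnormalized counts by gene symbol, 1 table per mouse. The submitters' processing notes name mm10, and tool versions and gene annotation are not given in the sources used here. Replicates are separate samples in the labels, which name no animal, so p-values measure the spread between these samples. Replicate numbers follow the sample titles, and the value columns of the deposited counts carry other numbers. No library was a repeat of another, as chi-square values of replicate pairs were 12.1 to 37.0 per degree of freedom.

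The tests used edgeR 4.0.16 under R 4.3.3 (TMM, filterByExpr with a minimum count of 10 and a total of 15, quasi-likelihood test, Benjamini-Hochberg adjustment over 12995 genes, threshold 0.05). Standard errors were derived from the F statistic. Alternatives were limma 3.58.1 after quantile normalization, DESeq2 1.42.0, other scaling and filters, a replicate block, a muscle covariate and leaving out each mouse. Log2 CPM used a prior count of 2, and ratios a pseudocount of 0.5. The steps were tested on simulated data with equal numbers of genes raised and lowered. That test did not cover how calls depend on library scaling. The floor of 3 counts was between 0.176 and 0.397 CPM and covers counting error only.

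The 9 genes, lists, tests and alternatives were chosen with earlier results of these data known. Named genes are the 9, the 3 most negative and 3 most positive others of each list around the cycle (which takes in every other tested isoform), neighbours whose start lies within 1000 bases, the 3 most similar genes for Idh1, Idh2 and Idh3a, and Letmd1. Marker lists are given by counts and sums, with some markers named beside them. Of the genes this rule names, 2 are counted in their lists and not reported here. Promoter windows came from RefSeq (GRCm38.p6) and positions from GENCODE vM21.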

Additional observations from a re-analysis of the deposited data

How the results depend on the processing

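Over 13 alternatives for each of the 9 genes, Idh1, Idh3b, Idh3g, Ogdh and Suclg1 kept their direction and passed the threshold in all 13. With library size alone Cs reversed to 0.027 on the log2 scale, as it did to 0.43 after quantile normalization, and it passed the threshold as lower with DESeq2 (-0.41). Quantile normalization left Idh3a at -0.29 and Mdh2 at -0.11, and the muscle covariate left Idh2 at 0.51, all without a call. The cause was not tested. With library size alone the median of all genes moved to 0.45. Relative to the median of all genes under each setting, Cs was -0.43 with TMM and with library size alone. It was 0.48 under quantile normalization. Members higher numbered 2 under quantile normalization (Idh2 and Cs) and 0 with the muscle covariate. Likewise 1 gene of the mitochondrial cycle was higher under quantile normalization, 0 related isoforms were higher with the muscle covariate, and 3 NADPH genes were lower with library size alone. Idh1 over Idh3a reversed to -0.064 under quantile normalization. Of all genes, 2896 were lower and 3082 higher. With library size alone 1368 were lower and 5899 higher (81.2% of calls higher, against 51.6%), and with the muscle covariate 1777 were lower and 1815 higher (3592 in all). Leaving out each mouse in turn gave log2 fold changes of -0.53 to -0.28 for Cs, with a call without KO replicate 3 (-0.53), and of 0.41 to 0.74 for Idh2. Correlations of deviations between wild-type and KO mice were -0.11 to 0.069 for the same replicate number and -0.093 to 0.19 for different numbers. With 3 mice per group, these cannot show whether the replicate numbers pair the mice. The replicate block changed no call of the 9 genes (Idh2 0.59, Cs -0.41), gave 2713 genes lower and 2886 higher, and in the ratios left the differences as they were, with a smallest possible p of 0.25. Precision is limited by 3 mice per group rather than by depth, as the 9 genes had at least 2155 counts in every mouse.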
